A study of Mus musculus with 6 samples.

Results

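The genes described here encode the mouse glutaredoxins Glrx, Glrx2, Glrx3 and Glrx5 and the methionine sulfoxide reductases Msra, Msrb1, Msrb2 and Msrb3, in hearts that carry an altered Txnip. They were chosen by name, with earlier results of these data known. Each symbol matched 1 Ensembl identifier, giving 8 of the 49315 genes in the deposited table. All 8 had enough counts to be among the 12777 genes tested. RNA sequencing was done on hearts of C57BL/6 mice, 3 with the conditional Txnip C247S knock-in and 3 that were wild-type at Txnip. For both genotypes the labels name MerCreMer, a tamoxifen-inducible Cre recombinase, and 4-hydroxytamoxifen. The promoter driving the recombinase, its presence in the wild-type hearts, and the age and sex of the mice are not stated in the labels. Library totals ran from 14737704 to 15620476 counts in knock-in and from 14146048 to 14560325 counts in wild-type hearts.

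Glutaredoxins are small enzymes of the thioredoxin fold that use glutathione to undo disulfides between proteins and glutathione. Members with a pair of active-site cysteines, the dithiol class, act mainly in this repair, while members with a single one, the monothiol class, bind and hand on iron-sulfur clusters. Methionine sulfoxide reductases return oxidised methionine to methionine, Msra acting on one stereoisomer of the sulfoxide and the Msrb enzymes on the other, and most are recharged by thioredoxin. Txnip binds reduced thioredoxin through a cysteine that the knock-in replaces. The comparison shows whether transcripts of these neighbouring thiol systems differ in hearts with that replacement.

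The coding sequence at each active site is shown because it separates the classes whose transcripts are compared. The stretches were read 5′ to 3′ on the coding strand of GENCODE release M21 transcripts (GRCm38). Capitals mark the catalytic codon or codons, cysteine in all but Msrb1, where a stop codon is read as selenocysteine.
Glrx: aagcccaccTGCccctacTGCagaaagacc
Glrx2: aaaacatccTGCtcttacTGTtccatggcc
Glrx3, site 1: gaaccacgcTGTggtttcagcaagcagatg
Glrx3, site 2: gaagcaaaaTGTggattcagcaaacaaatt
Glrx5: cagccccagTGCggcttcagcaacgccgtg
Msra: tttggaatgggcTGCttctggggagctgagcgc
Msrb1: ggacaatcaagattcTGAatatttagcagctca
Msrb2: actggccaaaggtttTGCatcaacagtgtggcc
Msrb3: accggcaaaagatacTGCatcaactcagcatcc

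Glrx and Glrx2 carry 2 cysteine codons in the stretch shown, Glrx3 carries the monothiol site 2 times and Glrx5 carries it 1 time. Counting from the start codon, the catalytic codon is number 95 of 116 in Msrb1, number 162 of 175 in Msrb2 and number 151 of 186 in Msrb3. In Msra it is codon 72 of 233. The Msrb1 stretch lies in exon 3 at chr17:24740143-24740175, plus strand, and the Glrx stretch in exon 1 at chr13:75840026-75840055, plus strand. Those of Msra and of site 1 of Glrx3 cross an exon junction. A gene count sums reads over the whole transcript, so it shows neither the reading of the Msrb1 stop codon nor the oxidation state of any protein.

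Txnip, the gene altered in the knock-in, had 438, 391 and 429 CPM in knock-in hearts, against 724, 791 and 741 CPM in wild-type hearts. CPM are counts per unit of library size, with TMM scaling. All knock-in values lay below all wild-type values. A gene count does not show the replaced codon, so these values describe the labelled groups and do not verify the genotype. The log2 fold change was −0.84 ± 0.09 (SE), with an edgeR quasi-likelihood adjusted p of 0.00379. The call was lost without knock-in replicate 3 (−0.86, edgeR adjusted p = 0.0642) and without wild-type replicate 2 (−0.80, edgeR adjusted p = 0.0525). Heart muscle markers identified the tissue: 8 of 8 were tested, with a summed level of 57637 to 63725 CPM in knock-in and 55816 to 58537 CPM in wild-type hearts.

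No glutaredoxin or methionine sulfoxide reductase gene passed the test of knock-in against wild-type hearts. With calls made at an adjusted p under 0.05, edgeR called 0 of the 8, DESeq2 0 and limma-voom 0, and 0 had an edgeR p under 0.05 before adjustment. Across all tested genes edgeR called 38, or 0.297% (0.11% higher and 0.188% lower in knock-in hearts), while 9.97% had a p under 0.05 before adjustment, so 0 called of 8 is near the background and is not in itself a result about these genes. What the data give is the size of the differences and their bounds. The log2 fold changes, knock-in over wild-type, ran from −0.08 for Glrx5 to 0.11 for Msrb1, 6 above and 2 below 0, with a median of 0.05 against −0.0068 over all tested genes. The outermost bounds of the 8 intervals (95%, edgeR) were −0.39 and 0.42. The estimate for Txnip, −0.84, lay outside each of them.

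**Figure D1:**
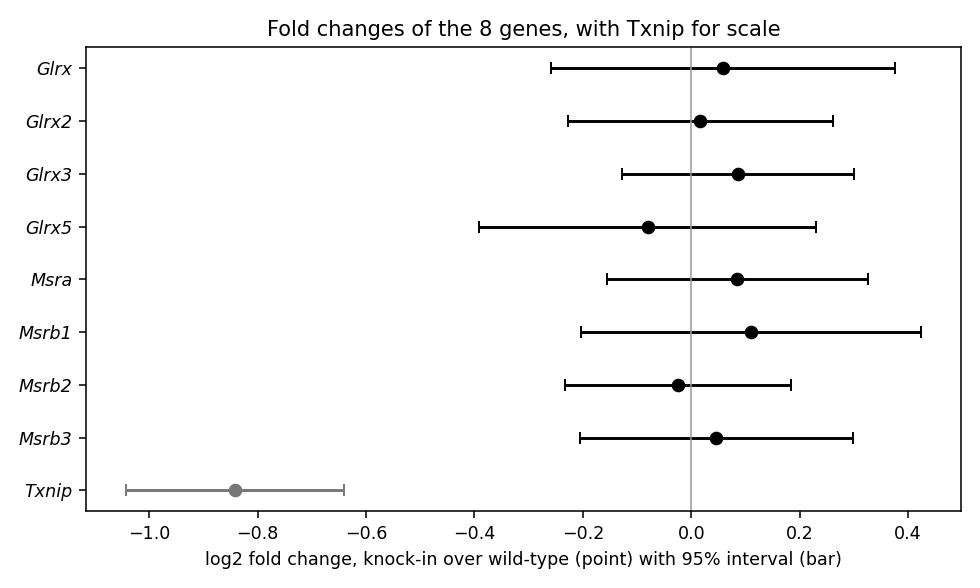
Log2 fold change of each gene, knock-in over wild-type, as a point with its 95% interval as a bar, with Txnip in grey. All 8 intervals cross 0 and end between −0.39 and 0.42, while the Txnip interval ends at −0.64.

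Among the dithiol glutaredoxins, Glrx encodes the cytosolic enzyme that removes glutathione from proteins (ENSMUSG00000021591, chromosome 13, 75839868 to 75850154). It had 20.4, 19.8 and 16.2 CPM in knock-in hearts, against 18.1, 20.4 and 15.6 CPM in wild-type hearts. The groups overlapped over nearly their whole range. The mean was 18.8 ± 2.24 CPM in knock-in and 18.0 ± 2.36 CPM in wild-type hearts (SD, n = 3 each), a log2 fold change of 0.06 with an interval of −0.26 to 0.38 (edgeR adjusted p = 0.950). This was the least counted of the 8 genes, with 238 to 313 counts per knock-in library and 226 to 294 per wild-type library.

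Glrx2 encodes a dithiol enzyme found chiefly in mitochondria (ENSMUSG00000018196, chromosome 1, 143716338 to 143749676). Its values were 23.2, 22.4 and 24.3 CPM in knock-in hearts, against 23.7, 22.02 and 23.5 CPM in wild-type hearts. The 6 hearts lay close together, the highest being 1.10 times the lowest. The coefficient of variation between hearts was 4.16% in knock-in and 3.86% in wild-type hearts, below the 5.40% that counting error alone gives at this depth. The log2 fold change was 0.02 with an interval of −0.23 to 0.26 (edgeR adjusted p = 0.987).

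Of the monothiol members, Glrx3 encodes a cytosolic protein with a thioredoxin-like part and glutaredoxin repeats, also known as PICOT, which in mice restrains cardiac hypertrophy (ENSMUSG00000031068, chromosome 7, 137437614 to 137468594). It had 139, 144 and 141 CPM in knock-in hearts, against 124, 144 and 131 CPM in wild-type hearts. The knock-in hearts lay close together near the highest wild-type heart, and the groups overlapped. The mean was 141 ± 2.93 CPM in knock-in and 133 ± 10.5 CPM in wild-type hearts (SD, n = 3 each). Glrx3 had the smallest p of the 8 genes, with a log2 fold change of 0.09, an interval of −0.13 to 0.30 and an edgeR adjusted p of 0.847. Of the 31-base words of its longest transcript, 23.1% also occur in the processed pseudogene Gm12669, so reads placed in either gene are uncertain. Gm12669 had 7 to 20 counts in knock-in and 11 to 26 counts in wild-type libraries. For Glrx2, 10.7% of such words occur in other genes, with 7.38% in Samsn1, which had 3 to 10 counts per library. For Txnip, 19.6% occur in Gm15441, which overlaps its exons by 606 bases on the opposite strand and had 2 to 17 counts.

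Glrx5 encodes the mitochondrial monothiol enzyme that passes on newly made iron-sulfur clusters (ENSMUSG00000021102, chromosome 12, 105032688 to 105042906). Its values were 64.2, 48.5 and 57.0 CPM in knock-in hearts, against 64.0, 66.1 and 49.3 CPM in wild-type hearts. In each genotype 1 heart was low, knock-in replicate 2 and wild-type replicate 3, and the groups overlapped. The mean was 56.6 ± 7.87 CPM in knock-in and 59.8 ± 9.12 CPM in wild-type hearts (SD, n = 3 each). Its log2 fold change, −0.08, was the lowest of the 8, with the interval that reached furthest below 0, from −0.39 to 0.23 (edgeR adjusted p = 0.916).

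**Figure D2:**
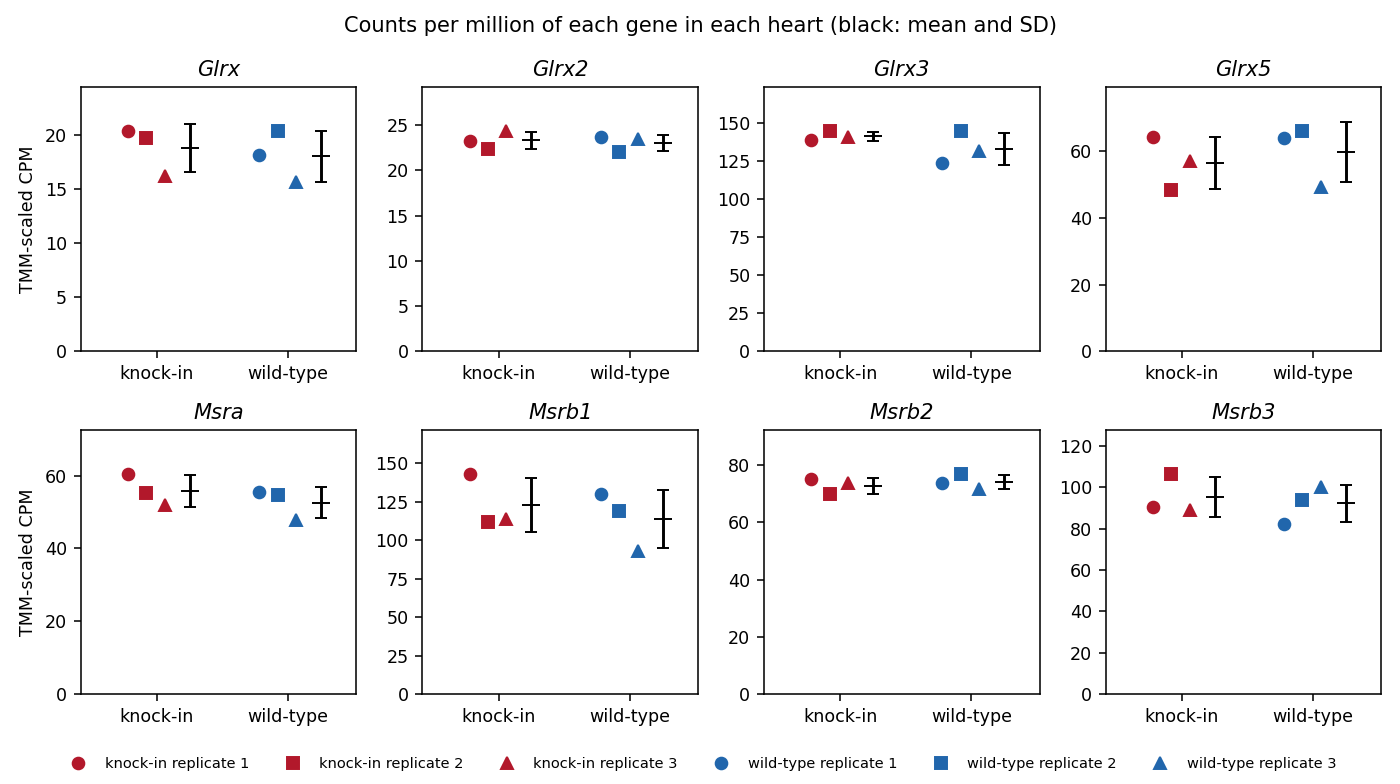
TMM-scaled CPM (vertical axis from 0) of each gene in each heart, knock-in in red and wild-type in blue, with the symbol giving the replicate and black bars the mean and SD of 3 hearts. In each of the 8 panels the red and blue points overlap.

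Msra is the enzyme for the sulfoxide stereoisomer that the Msrb enzymes leave, and it is found in mitochondria and cytosol (ENSMUSG00000054733, chromosome 14, 64122625 to 64455903). It had 60.4, 55.2 and 51.8 CPM in knock-in hearts, against 55.5, 54.6 and 47.8 CPM in wild-type hearts. The highest value was in a knock-in and the lowest in a wild-type heart, and the other 4 were mixed. The mean was 55.8 ± 4.32 CPM in knock-in and 52.6 ± 4.23 CPM in wild-type hearts (SD, n = 3 each). The log2 fold change was 0.09 with an interval of −0.16 to 0.33 (edgeR adjusted p = 0.874).

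Msrb1 is the selenoprotein of the family, acts in cytosol and nucleus, and reverses the oxidation of actin methionines by the MICAL enzymes (ENSMUSG00000075705, chromosome 17, 24736642 to 24742778). It had 143, 112 and 114 CPM in knock-in hearts, against 130, 119 and 92.9 CPM in wild-type hearts. Knock-in replicate 1 was highest and wild-type replicate 3 lowest, while the other knock-in hearts lay below the other wild-type hearts, so the groups overlapped. The mean was 123 ± 17.4 CPM in knock-in and 114 ± 18.9 CPM in wild-type hearts (SD, n = 3 each). Msrb1 had the largest log2 fold change of the 8, 0.11 with an interval of −0.20 to 0.42 (edgeR adjusted p = 0.877). It also varied most between hearts of 1 genotype, with a coefficient of variation of 14.1% in knock-in and 16.6% in wild-type hearts, against 2.39% from counting error.

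Msrb2 encodes the mitochondrial Msrb enzyme (ENSMUSG00000023094, chromosome 2, 19371440 to 19394976). It had 75.1, 69.8 and 73.6 CPM in knock-in hearts, against 73.8, 76.8 and 71.8 CPM in wild-type hearts. This was the narrowest spread of the 8 genes on the log2 scale, 0.14 between the highest and lowest heart, and 0.947% of tested genes had a narrower one. The log2 fold change was −0.02 with an interval of −0.23 to 0.18 (edgeR adjusted p = 0.973).

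Msrb3 encodes an Msrb enzyme of the endoplasmic reticulum (ENSMUSG00000051236, chromosome 10, 120781096 to 120899101). Its values were 90.3, 106 and 89.0 CPM in knock-in hearts, against 82.5, 94.1 and 100.1 CPM in wild-type hearts. The highest heart was a knock-in and the lowest a wild-type, while the other knock-in hearts lay below the other wild-type hearts, so the groups overlapped. The mean was 95.2 ± 9.67 CPM in knock-in and 92.2 ± 8.94 CPM in wild-type hearts (SD, n = 3 each). The log2 fold change was 0.05 with an interval of −0.21 to 0.30 (edgeR adjusted p = 0.951).

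None of the 8 genes had the values of one genotype wholly outside the range of the other, as 16.1% of all tested genes did. At that share, 0 of 8 is not in itself a result about these genes. The differences that were seen between hearts ran across genotypes. Wild-type replicate 3 was the lowest heart for 3 of the 8 genes, Glrx, Msra and Msrb1, and knock-in replicate 1 the highest for the same 3, level for Glrx with wild-type replicate 2. Over all tested genes, 22.2% were lowest and 20.3% highest in wild-type replicate 3, while 17.9% were highest and 19.9% lowest in knock-in replicate 1. Wild-type replicate 3 also had the highest mitochondrially encoded share of counts, 28.0%, against 22.9% to 24.1% in knock-in and 23.4% to 24.3% in the other wild-type hearts. The part of that share in the low values was not tested. Without this library the log2 fold change was −0.03 for Glrx, 0.02 for Msra, −0.02 for Msrb1 and −0.20 for Glrx5, with 0 of the 8 called.

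Msrb3 moved differently from Msrb1 across the same hearts. The ratio of Msrb1 to Msrb3 counts was 1.58, 1.05 and 1.28 in knock-in hearts, against 1.57, 1.26 and 0.929 in wild-type hearts. It was high in replicate 1 of each genotype, a number that pairs no samples, and low in knock-in replicate 2 and wild-type replicate 3. The ratio of Glrx5 to Glrx3 counts was lowest in those same 2 hearts, at 0.463, 0.336 and 0.405 in knock-in and 0.518, 0.458 and 0.376 in wild-type hearts. These ratios differed as much within a genotype as between the genotypes. Other gene pairs were computed. Msrb1 over Msra, Msrb1 over Glrx3 and Glrx5 over Glrx2 were also lowest in those 2 hearts. Msrb1 over Msrb2 was 1.61 in knock-in replicate 2, above 1.54 in knock-in replicate 3. Over all genes, the chi-square per degree of freedom of replicate pairs with knock-in replicate 2 reached 27.02, against 7.45 without it. With wild-type replicate 3 it reached 21.48, against 7.16 without it. A relation particular to these genes was not tested.

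**Figure D3:**
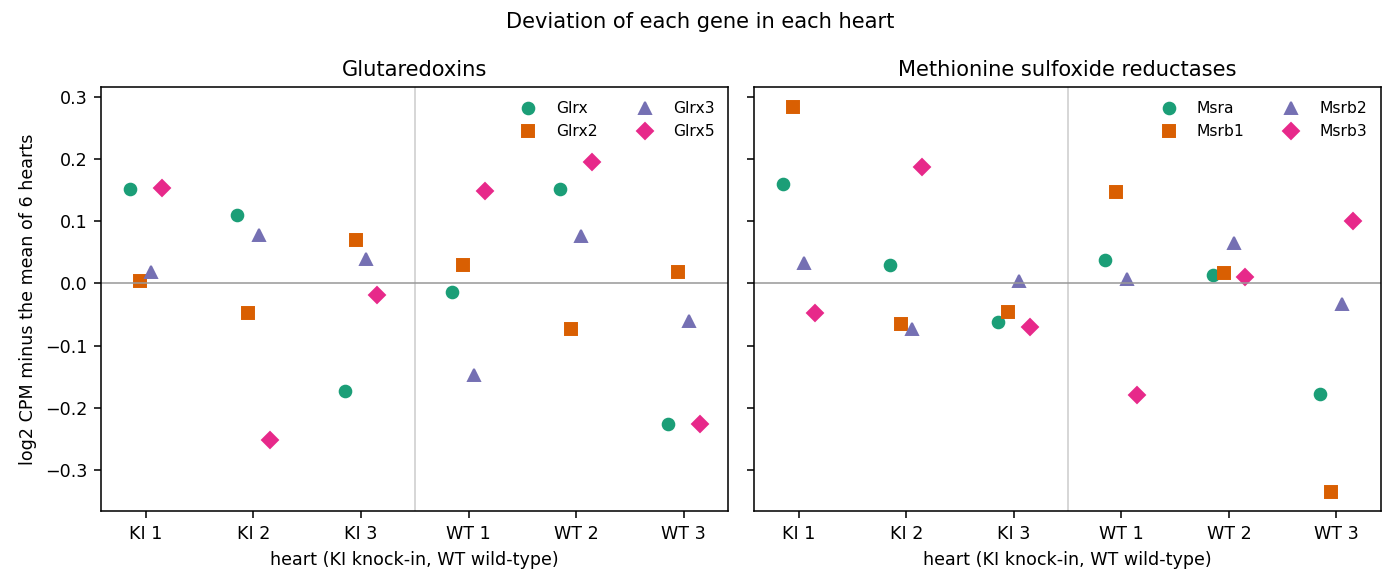
Deviation of each gene in each heart, as log2 CPM minus its mean over the 6 hearts, for the glutaredoxins (left) and the methionine sulfoxide reductases (right). Msrb1 spans 0.62 between hearts and Msrb2 0.14, and points of the knock-in hearts lie on both sides of 0 for Glrx, Glrx2, Glrx5, Msra, Msrb1, Msrb2 and Msrb3.

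Compared per length of transcript, the methionine sulfoxide reductases had the higher summed level, by a margin that depended on the length used. Levels here are TMM-scaled CPM per kilobase of the union of a gene's annotated exons. Their summed level was 205, 179 and 178 CPM per kilobase in knock-in hearts, against 190, 186 and 162 in wild-type hearts. The summed level of the 4 glutaredoxins was 51.4, 48.1 and 49.2 CPM per kilobase in knock-in hearts, against 48.0, 52.9 and 45.1 in wild-type hearts. Neither sum separated the genotypes. As the mean of all hearts, the reductases summed to 3.73 times the glutaredoxins with this length, 2.92 times with the longest transcript and 1.75 times with the protein-coding transcript whose active site is printed, a length chosen after seeing the data. Within the reductases, Msrb1 made up 52.0% ± 3.06 of the sum in knock-in and 50.2% ± 4.35 in wild-type hearts, and Msrb2 28.4% ± 1.69 in knock-in and 30.1% ± 2.02 in wild-type hearts (SD, n = 3 each). Within the glutaredoxins, the monothiol members made up most of the sum, 83.1% to 87.8% over the 3 lengths. By the union of exons, Glrx3 was 56.8% ± 3.05 in knock-in and 54.5% ± 3.36 in wild-type hearts, and Glrx5 was 30.9% ± 3.30 in knock-in and 33.3% ± 3.28 in wild-type hearts.

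The order of levels, as the mean of all hearts, was Msrb1 at 94.1 CPM per kilobase, Msrb2 at 53.4, Glrx3 at 27.3, Msrb3 at 23.1, Glrx5 at 15.8, Msra at 12.6, Glrx at 3.35 and Glrx2 at 2.64. Each gene was above the next in 6 of 6 hearts. The ranges over hearts overlapped between Glrx3 and Msrb3 and between Glrx5 and Msra, and did not overlap for the other 5 neighbours. Within single hearts the ratio was 1.06 to 1.28 for Glrx3 over Msrb3 and 1.02 to 1.41 for Glrx5 over Msra. These steps were thus small in some hearts. Msrb1 stood above 96.7% and Msrb2 above 94.8% of all tested genes in level per length, whereas Glrx stood above 53.3% and Glrx2 above 47.4%. The order depends on the length used, and the union of exons counts every annotated exon, including those of transcripts that may not be present. With the length of the protein-coding transcript whose active site is printed, Glrx3 stood at 81.3 CPM per kilobase, next to Msrb1, and Glrx stood at 13.7. Msrb1 then was above Glrx3 in 5 of 6 hearts. Msrb1 was highest under each of the 3 lengths, and the lowest place went to Glrx2 with the union and the protein-coding transcript and to Glrx, at 4.36, with the longest transcript.

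**Figure D4:**
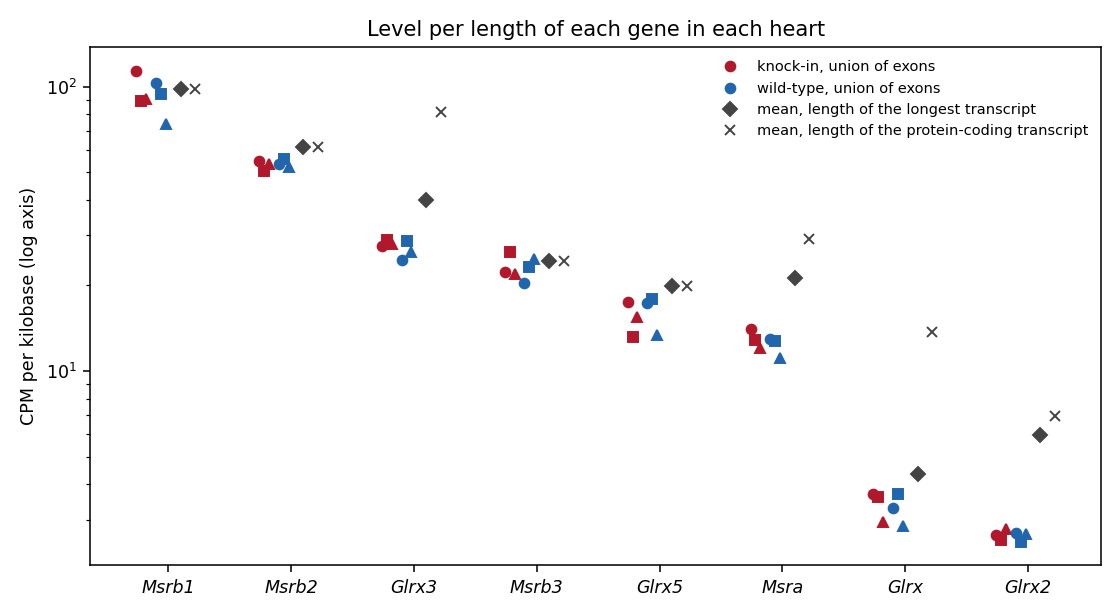
Level of each gene per length (log axis, TMM-scaled CPM per kilobase), with coloured points for each heart by the union of exons and grey marks for the mean of 6 hearts by the other 2 lengths. Msrb1 lies highest under each length, and Glrx and Glrx2 lie lowest.

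Genes that work with these enzymes were described as lists. The electron donor list holds the glutathione and thioredoxin enzymes and their sources of NADPH. It had 0 of 14 tested members called, with a median log2 fold change of 0.02. In this list 4 members were below 0.05 in unadjusted p (2 higher, 2 lower), against 9.97% of all tested genes. Its member with the smallest p was Txn1, the cytosolic thioredoxin that recharges methionine sulfoxide reductases, at 72.2, 62.7 and 66.0 CPM in knock-in hearts, against 55.9, 57.3 and 47.0 CPM in wild-type hearts. Those values did not overlap, as for 16.1% of all tested genes. Txn1 did not pass over all genes (log2 fold change 0.33, interval 0.08 to 0.58, edgeR adjusted p = 0.346). A member named for the smallest p of its list has a low p by selection.

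The iron-sulfur cluster assembly list covers the pathway in which Glrx5 and Glrx3 act. Of 29 tested members 0 were called and 9 had a log2 fold change above 0, against 48.3% of all tested genes, and the median was −0.09. An unadjusted p under 0.05 was found for 4, all lower, against 9.97% of all tested genes. The summed level was 1984 to 2144 CPM in knock-in and 2164 to 2192 CPM in wild-type hearts. Those ranges did not overlap, but without the abundant chaperone Hspa9, left out after its values were seen, they did, at 1186 to 1297 CPM in knock-in and 1216 to 1371 CPM in wild-type hearts. Without knock-in replicate 1 the median was −0.01, and 14 of 29 members were above 0. The member with the smallest p was Bola3, a partner of Glrx5 in cluster transfer, at 135, 130 and 132 CPM in knock-in hearts, against 174, 193 and 142 CPM in wild-type hearts. Its groups did not overlap, as for 16.1% of all tested genes. Bola3 did not pass over all genes (log2 fold change −0.36, interval −0.62 to −0.10, edgeR adjusted p = 0.317).

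The selenoprotein list, to which Msrb1 belongs by its chemistry, had 0 of 23 tested members called, a median of −0.03 and 1 member with an unadjusted p under 0.05. That 1 was Sephs2, which makes the selenium donor for selenocysteine, at 24.9, 25.9 and 24.5 CPM in knock-in hearts, against 32.7, 32.1 and 29.7 CPM in wild-type hearts. Its log2 fold change was −0.33, with an interval of −0.56 to −0.09 and an edgeR adjusted p of 0.310. The thioredoxin reductases Txnrd1, Txnrd2 and Txnrd3, also selenoproteins, were counted in the electron donor list instead. Their log2 fold changes were −0.36, 0.08 and −0.16. Txnrd1 had an edgeR p of 0.022 before adjustment and 0.392 after it. In the methionine list 0 of 14 tested members were called, 0 had an unadjusted p under 0.05, and the median was 0.04. Mical2, an enzyme that oxidises actin methionines, had the smallest p there, with a log2 fold change of −0.24, an interval of −0.53 to 0.04 and an edgeR adjusted p of 0.587. Among relatives that share the glutaredoxin fold, 0 of 8 tested members were called, and the median was 0.07. In this list 2 members had an unadjusted p under 0.05, both higher, against 9.97% of all tested genes. Clic4, an intracellular channel-like protein, had the smallest p, with a log2 fold change of 0.27, an interval of 0.06 to 0.47 and an edgeR adjusted p of 0.355. DESeq2 and limma-voom also called 0 members in each of these 5 lists.

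**Figure D5:**
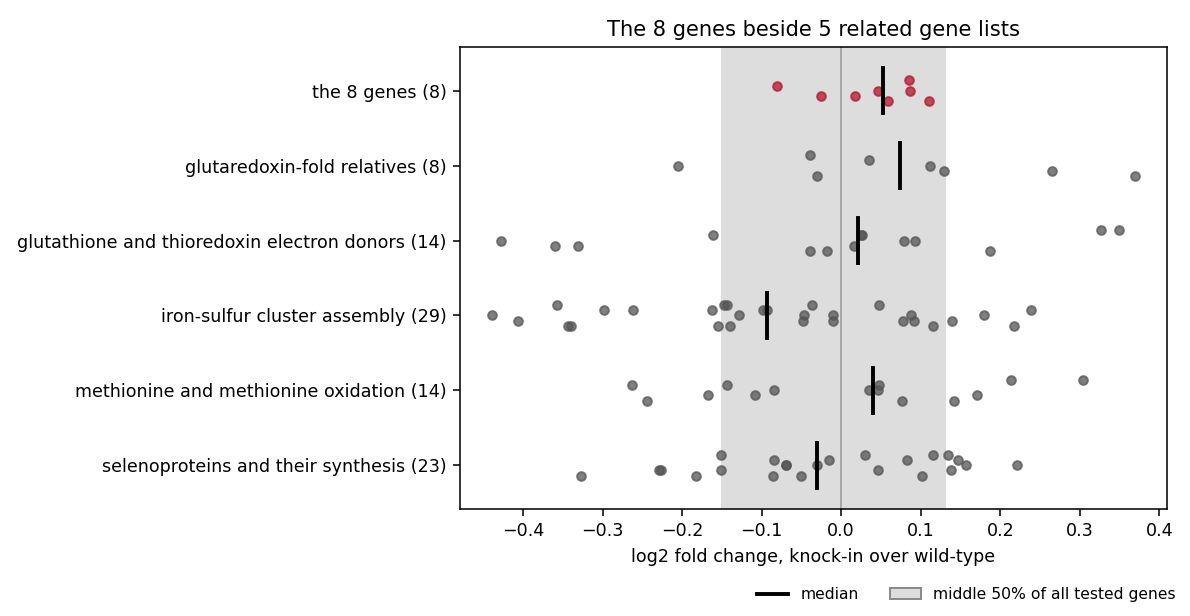
Log2 fold changes, knock-in over wild-type, of the tested members of each list (points), with the list's median (black bar) and the middle 50% of all tested genes (grey band, −0.15 to 0.13). The 8 glutaredoxin and methionine sulfoxide reductase genes (red) all lie inside the band, between −0.08 and 0.11.

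Markers of other cell types that the hearts hold differed in part between the genotypes. Red cell markers had 6 of 8 tested members called higher, with a summed level of 1495 to 1965 CPM in knock-in and 487 to 665 CPM in wild-type hearts. The calls numbered 3 when knock-in replicate 3 was left out and 2 when wild-type replicate 2 was, and 8 of 8 members were above 0 in log2 fold change in both fits. Macrophage markers had 1 of 10 called by edgeR, Lyz2, which was lower. Of the 10, 0 had a log2 fold change above 0, the median was −0.46, and 7 had an unadjusted p under 0.05, all lower. DESeq2 called 3 and limma-voom 0, and among the edgeR fits that left out a library the call was kept only in the one without knock-in replicate 2. Their summed level was 256 to 276 CPM in knock-in and 339 to 392 CPM in wild-type hearts. Smooth muscle and pericyte markers had 1 of 8 called, Acta2, which was lower, while 4 of 8 were above 0 and the median was 0.0036. Their summed level was 570 to 588 CPM in knock-in and 662 to 727 CPM in wild-type hearts. Without Acta2, a choice made after its values were seen, the ranges overlapped, at 476 to 516 CPM in knock-in and 480 to 550 CPM in wild-type hearts. Endothelial and fibroblast markers had 0 of 8 called each, and no marker of these lists was at 0 counts in all libraries. In whole hearts, fewer cells of a type and less RNA per cell cannot be told apart. The part of these cells in the levels of the 8 genes was not tested.

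For Glrx3 and Msra, the genes with the smallest p of the 8, the most similar profiles were sought among 12085 other protein-coding genes, as the root mean square distance between log2 CPM values centred on their mean over the 6 hearts. Those nearest to Glrx3 were Slc20a2 at 0.014, Fbxo21 at 0.018 and Znrd1as at 0.024, where the median distance was 0.20. Nearest to Msra were Diablo at 0.021, Commd6 at 0.026 and Slc35a4 at 0.026, where the median was 0.21. The smallest of 12085 distances over 6 hearts are small by selection, and shared regulation was not tested.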

How the data were processed

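RNA was sequenced from 6 mouse hearts, 3 knock-in and 3 wild-type. The authors deposited 1 table of raw, unnormalized counts for each gene and heart. STAR, featureCounts, Subread 1.5.2, DESeq2 and GRCm38.p6 are named, with no roles, per the submitters' processing notes. No source used here states the annotation release, the strand setting or how multiply matching reads were handled. Table columns were matched to hearts by the sample descriptions. Names and positions came from GENCODE M21 (GRCm38), which held 48970 of 49315 identifiers.

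The test was edgeR 4.0.16 in R 4.3.3, with filterByExpr, TMM, robust glmQLFit, glmQLFTest and Benjamini-Hochberg adjustment over 12777 genes, called at an adjusted p under 0.05. SE is the log2 fold change over the square root of F. Alternatives used DESeq2 1.42.0, limma 3.58.1, other scalings and filters, and each library left out. Replicate pairs of a genotype differed beyond sampling noise, with a chi-square of 7.16 to 27.02 per degree of freedom. In simulated counts for knock-in over wild-type (12624 genes tested), edgeR called 23.5% of genes given a log2 change of 0.5 in size and 84.8% of genes given a change of 1. It called 16 of 12424 genes given none, beside 16, 56 and 64 genes given a change of 0.5, 1 and 2 in size. Only genes above a minimum mean count were given a change, so these rates do not cover all tested genes. Counts were drawn independently for each gene and library, with no outlying library. The rates may therefore not hold for these hearts. Counting errors cover counting only.

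The genes and lists were chosen with earlier results of these data known. Named are the 8 genes, Txnip, called list members or else the one with the smallest p, and the 3 nearest profiles to 2 genes. Also named are genes that share sequence, and Hspa9 and the thioredoxin reductases, picked after their values were seen. Marker lists are given as counts, with a lone called member named. Of the 36 names in the iron-sulfur list, which include alternative symbols, 30 matched a gene.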

Additional observations from a re-analysis of the deposited data

How the results depend on the processing

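The count of 0 called among the 8 genes was the same under all 15 alternatives. Calls over all genes, 38, were 317 without a filter on low counts, 139 with DESeq2 and 18 with limma-voom, and 36 to 40 under the other alternatives that kept all libraries. They ran from 5 without wild-type replicate 2 to 174 without knock-in replicate 2; the cause was not tested. With library size alone Glrx2 changed sign to −0.023. Leaving out 1 library gave log2 fold changes of −0.034 to 0.15 for Glrx, −0.014 to 0.055 for Glrx2, 0.04 to 0.15 for Glrx3, −0.20 to 0.030 for Glrx5, 0.02 to 0.14 for Msra, −0.017 to 0.21 for Msrb1, −0.047 to 0.015 for Msrb2 and −0.032 to 0.11 for Msrb3. Thus 6 of the 8 changed sign in some fit, Glrx3 and Msra in none. No paired analysis was possible because the labels give the genotypes no shared replicate numbers. Counting error was the largest of the 8 genes for Glrx and Glrx2, at 6.05% and 5.40%.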
